A study of Mus musculus with 10 samples.

Results

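A set of 9 genes that encode Sox transcription factors was followed through RNA sequencing of the melanoma line WT31 and its subline WT31_P5IV. The 9 genes were Sox2, Sox4, Sox5, Sox6, Sox9, Sox10, Sox11, Sox12 and Sox13, taken by symbol out of 55385 gene identifiers. They were chosen by their levels in this very comparison, so the differences between the lines are given for them as a description. Nothing is read from how many of them passed the test that was run on all genes. Of the 20 mouse Sox genes looked up, Sry included, these 9 and Sox21 held enough counts to enter the comparison of 13620 genes, and the other 10 had at most 3 counts in every library.

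WT31 is a mouse melanoma line from Tyr∷NrasQ61K/°; INK4a−/− animals, in which the tyrosinase promoter drives mutant Nras in pigment cells and the tumour suppressor Ink4a is missing. WT31_P5IV was obtained from it by 5 rounds of injection into a vein, recovery of the tumour cells from the liver and growth in culture. The subline thus descends from cells of that genotype. The study found mutant NRAS by PCR in WT31 and its sublines, and other alleles were not compared here. Each line was represented by 5 libraries of untreated, sub-confluent cultures, labelled as biological replicates, and no RNA from metastases was measured. The comparison is one of 1 parental line with 1 subline, and p-values therefore measure the spread between these cultures and not between independently passaged sublines.

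Sox proteins bind DNA through an HMG box, a domain that sits in the minor groove and bends the helix. They are sorted into subgroups by the sequence of that box, and members of a subgroup often act on the same genes. In the melanocyte lineage, which comes from the neural crest, Sox10 is the central member and switches on Mitf and the pigment enzymes together with Pax3. Sox9 also acts in cartilage, Sox2 maintains stem and neural progenitor cells, the SoxC proteins Sox4, Sox11 and Sox12 are activators in embryonic and neural progenitors, and the SoxD proteins Sox5, Sox6 and Sox13 lack an activation domain of their own and modulate other Sox proteins.

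The start of the HMG box shows what the 9 genes share and where their transcripts can still be told apart in counting. The first 60 bases of the box coding sequence, beginning at the conserved arginine, were read from GENCODE M21 transcripts, 5′ to 3′ on the coding strand. Capitals mark the 27 bases that are identical in all 9 genes.
Sox2: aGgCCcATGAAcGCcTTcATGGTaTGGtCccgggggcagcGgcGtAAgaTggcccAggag
Sox4: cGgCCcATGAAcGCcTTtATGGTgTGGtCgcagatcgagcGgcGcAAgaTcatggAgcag
Sox11: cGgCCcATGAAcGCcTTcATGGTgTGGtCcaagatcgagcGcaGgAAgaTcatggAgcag
Sox12: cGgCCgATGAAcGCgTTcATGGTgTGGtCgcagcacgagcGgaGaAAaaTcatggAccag
Sox5: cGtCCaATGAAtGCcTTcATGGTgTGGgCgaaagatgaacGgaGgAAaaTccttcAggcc
Sox6: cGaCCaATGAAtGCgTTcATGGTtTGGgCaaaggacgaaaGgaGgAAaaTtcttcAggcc
Sox13: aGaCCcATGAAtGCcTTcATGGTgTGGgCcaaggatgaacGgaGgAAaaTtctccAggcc
Sox9: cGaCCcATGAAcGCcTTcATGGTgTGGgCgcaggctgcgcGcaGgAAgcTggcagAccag
Sox10: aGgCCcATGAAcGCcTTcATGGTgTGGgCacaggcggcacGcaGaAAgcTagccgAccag

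All of these stretches lie within a single exon of GRCm38. The Sox2 stretch is at chr3:34650548-34650607 on the plus strand, in the only exon of the gene. The Sox12 stretch is at chr2:152397516-152397575 on the minus strand, also in a single-exon transcript, as are those of Sox4 (chr13:28952782-28952841) and Sox11 (chr12:27342199-27342258), both on the minus strand. In the genes with several exons it falls in exon 13 of 15 for Sox5 (chr6:143841214-143841273, minus), exon 14 of 16 for Sox6 (chr7:115489703-115489762, minus) and exon 12 of 14 for Sox13 (chr1:133385506-133385565, minus). In the SoxE genes it falls in exon 1 of 3 for Sox9 (chr11:112782903-112782962, plus) and exon 3 of 5 for Sox10 (chr15:79163342-79163401, minus).

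Over 72 codons from the same arginine, the 7 pairs of genes of the same subgroup had 81.5 to 90.3% identical bases and 87.5 to 95.8% identical residues. The 29 pairs from different subgroups had 56.9 to 74.1% identical bases and 47.2 to 66.7% identical residues. Sox9 and Sox10 were the most alike in residues, and Sox4 and Sox11 in bases. Kallisto by default assigns reads by words of 31 bases, and for 7 of the members at most 1.34% of the words of their transcripts also occurred in transcripts of another gene. The exceptions were Sox4, where 54.7% of 4765 words occurred elsewhere, and Sox5, where 9.37% did, mostly in its antisense gene Sox5os1. Of the Sox4 words, 2586 occurred in Gm26735, a non-coding gene that overlaps Sox4 on the opposite strand in GENCODE M21. Gm26735 is not among the 55385 identifiers of the deposited counts, so no counts were listed for it. Sox2 shared 18 of 2027 words, with Sox1, Sox3 and Sox21, and none with another of the 9 genes.

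Sox2 was present in WT31 and nearly absent from WT31_P5IV. The 5 WT31 libraries held 204, 223, 199, 206 and 207 estimated counts of Sox2 (ENSMUSG00000074637.7, chr3:34650405-34652461, plus strand). The 5 WT31_P5IV libraries held 0, 0, 0, 1 and 0. Every WT31 library was thus far above every WT31_P5IV library, and a single count was all that was found in the subline. As counts-per-million values (CPM, on scaled library sizes), Sox2 stood at 8.11 ± 0.236 (SD, n = 5) in WT31. A library of WT31_P5IV with 0 counts allows up to 3 counts, which is 0.121 to 0.129 CPM, and against that limit Sox2 was at least 63.0-fold lower in WT31_P5IV. These limits cover counting error only. In bulk RNA, fewer cells that express a gene and less of its RNA per cell cannot be told apart, so the values do not say whether all WT31 cells held Sox2.

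Few genes of this level showed such a pattern. Of the 9472 identifiers whose mean in WT31 was at least that of Sox2, 4 had at most 3 counts in every WT31_P5IV library, and these were Sox2 itself, Asxl3, Egflam and Tbx3. In the other direction, 1 identifier had at most 3 counts in every WT31 library and reached that level in WT31_P5IV. The 5 genes whose log2 CPM (prior count 2) over the 10 libraries lay nearest to that of Sox2 were Asxl3, Tbc1d9, Egflam, Tbx3 and Ntm, at root mean square distances of 0.269, 0.419, 0.508, 0.611 and 0.629. Asxl3 encodes a Polycomb-associated protein and had 174 to 275 counts in WT31 and 0 in all 5 WT31_P5IV libraries. Tbx3 is a T-box transcription factor and had 212 to 249 counts in WT31 and 1 to 3 in WT31_P5IV. These genes were picked for their likeness in the libraries compared, and the distances are descriptions.

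**Figure D1:**
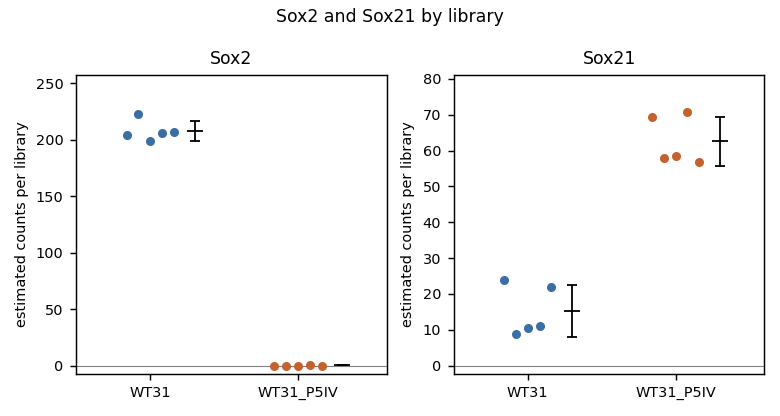
Estimated counts per library of Sox2 (left) and Sox21 (right) in WT31 and WT31_P5IV, with each point 1 of 5 libraries and the black bar the mean with its SD. Sox2 lies at 199 to 223 counts in WT31 and at 0 or 1 in WT31_P5IV, while Sox21 is low in WT31 and higher in all WT31_P5IV libraries.

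Sox12 had the next widest gap between the lines. WT31 held 471, 452, 488, 433 and 529 counts of Sox12 (ENSMUSG00000051817.8, chr2:152393611-152398063, minus strand). WT31_P5IV held 14, 23, 16, 15 and 19. The groups lay far apart, but in contrast to Sox2 every WT31_P5IV library still held Sox12 above the limit of 3 counts. The mean was 18.5 ± 1.62 CPM in WT31 and 0.727 ± 0.163 CPM in WT31_P5IV, a log2 fold change of −4.66 with a standard error of 0.11.

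Because Sox2 and Sox12 showed the widest gaps, the 300 bases around their RefSeq start sites (250 before and 50 after, GRCm38.p6, 5′ to 3′ on the strand of the gene) are shown. Capitals mark matches, on either strand, to CCAAT (the CCAAT box), ATGCAAAT (the octamer bound by POU factors), ACAAAG (a core sequence bound by Sox HMG boxes) and GGGCGG (the GC box bound by Sp1). Adjacent or overlapping matches run together. The Sox2 window is chr3:34649745-34650044 on the plus strand and ends before the start that GENCODE gives the gene. The Sox12 window is chr2:152397997-152398296 on the minus strand.
Sox2: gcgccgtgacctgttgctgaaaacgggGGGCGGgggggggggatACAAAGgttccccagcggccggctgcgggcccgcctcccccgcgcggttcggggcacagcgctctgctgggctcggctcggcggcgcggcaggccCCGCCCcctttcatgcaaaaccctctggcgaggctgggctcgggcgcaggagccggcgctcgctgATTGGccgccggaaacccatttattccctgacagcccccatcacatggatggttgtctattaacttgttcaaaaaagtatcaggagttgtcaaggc
Sox12: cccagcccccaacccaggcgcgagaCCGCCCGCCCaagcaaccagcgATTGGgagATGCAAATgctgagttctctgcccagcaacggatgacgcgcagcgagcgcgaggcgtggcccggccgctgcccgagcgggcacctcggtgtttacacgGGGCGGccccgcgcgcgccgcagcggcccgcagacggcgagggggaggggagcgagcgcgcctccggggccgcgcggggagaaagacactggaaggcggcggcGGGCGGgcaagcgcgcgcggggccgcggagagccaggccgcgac

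The Sox2 window held 1 CCAAT match, 1 ACAAAG match and 2 GGGCGG matches, and no octamer. The Sox12 window held 1 CCAAT match, 4 GGGCGG matches and 1 octamer, and no ACAAAG. Over all 32851 promoter windows of this length, CCAAT was found in 37.4%, GGGCGG in 35.7%, ACAAAG in 18.7% and ATGCAAAT in 1.74%. The Sox12 window held 47 CpG and the Sox2 window 27, against a median of 7 over all windows. RefSeq windows were at hand for 7 of the 9 genes, in 12 windows, and the octamer was found in that of Sox12 only. A match is a run of letters and not a bound site, and binding was not measured.

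The other SoxC genes differed far less than Sox12 between the lines. Sox11 (ENSMUSG00000063632.6, chr12:27334264-27342574, minus strand) had 2733, 3116, 2897, 2992 and 2909 counts in WT31 and 2365, 2273, 2316, 2481 and 2474 in WT31_P5IV. All WT31 libraries were above all WT31_P5IV libraries, and the means were 114 ± 4.39 and 99.4 ± 4.37 CPM, a log2 fold change of −0.20 with a standard error of 0.04. Sox4 (ENSMUSG00000076431.4, chr13:28948919-28953713, minus strand) had 6900, 7084, 6779, 7021 and 6813 counts in WT31 and 6290, 5995, 6253, 6599 and 6039 in WT31_P5IV. Its CPM overlapped between the groups, at 270 ± 3.75 and 260 ± 11.6, and WT31_P5IV replicate 4 was above every WT31 library. The log2 fold change of Sox4 was −0.05 with a standard error of 0.04.

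**Figure D2:**
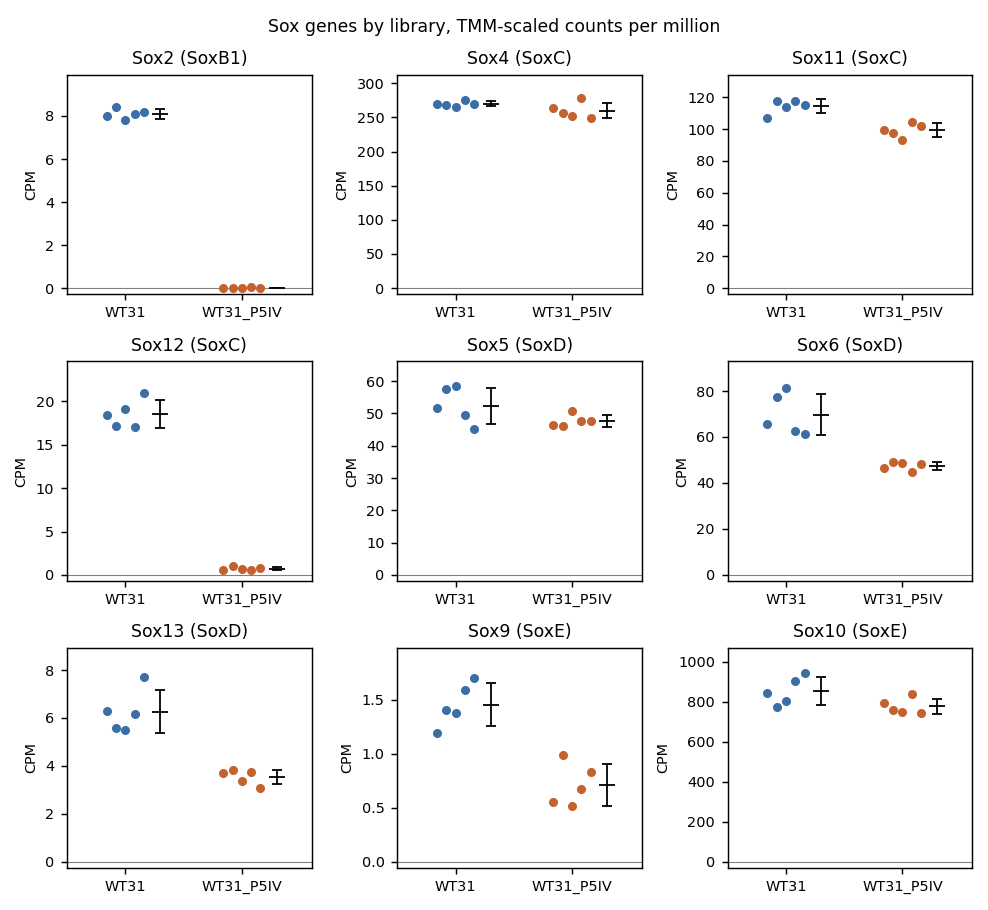
Counts-per-million values (CPM, scaled library sizes, linear axes from 0) of the 9 Sox genes in the 5 libraries of WT31 and the 5 of WT31_P5IV, with each point 1 library and the black bar the mean with its SD. The groups are far apart for Sox2 and Sox12, separate for Sox6, Sox9, Sox11 and Sox13, and overlap for Sox4, Sox5 and Sox10.

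Within SoxD, Sox13 and Sox6 were lower in every WT31_P5IV library and Sox5 was not. Sox13 (ENSMUSG00000070643.11, chr1:133382303-133424377, minus strand) had 161, 148, 140, 157 and 195 counts in WT31 and 88, 89, 84, 89 and 75 in WT31_P5IV. Its level was 6.26 ± 0.891 CPM in WT31 and 3.55 ± 0.303 CPM in WT31_P5IV, a log2 fold change of −0.82 with a standard error of 0.11. Sox6 (ENSMUSG00000051910.13, chr7:115470872-116038796, minus strand) had 1679, 2048, 2068, 1590 and 1553 counts in WT31 and 1110, 1149, 1206, 1064 and 1168 in WT31_P5IV. WT31 replicates 2 and 3 were the highest, and the 5 libraries of WT31_P5IV lay close together below all of WT31. Sox6 averaged 69.7 ± 9.02 CPM in the parental line and 47.5 ± 1.78 CPM in the subline, a log2 fold change of −0.55 with a standard error of 0.07.

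Sox5, a partner and close relative of Sox6 that also restrains Sox10 in melanocytes, overlapped between the lines. It had 1316, 1520, 1487, 1256 and 1137 counts in WT31 and 1104, 1076, 1264, 1130 and 1151 in WT31_P5IV (ENSMUSG00000041540.16, chr6:143828425-144781977, minus strand). Its level was 52.4 ± 5.60 CPM in WT31 and 47.7 ± 1.86 CPM in WT31_P5IV, with a log2 fold change of −0.13 and a standard error of 0.06. WT31 replicates 2 and 3 were again the highest, as they were for Sox6, and they also stood apart from the other WT31 libraries on the second principal component of all tested genes, which held 6.18% of the variance. Without these 2 libraries, a choice made after their values were seen, the log2 fold change was −0.04 for Sox5 and −0.43 for Sox6.

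The SoxE genes Sox10 and Sox9 lay at opposite ends of the levels per length in WT31. Sox10 (ENSMUSG00000033006.10, chr15:79154908-79165240, minus strand) had 21550, 20498, 20474, 22980 and 23823 counts in WT31 and 18879, 17706, 18638, 19898 and 18043 in WT31_P5IV. In CPM the groups overlapped, at 854 ± 69.3 in WT31 and 777 ± 39.0 in WT31_P5IV, and the log2 fold change was −0.14 with a standard error of 0.05. The 5 genes nearest to Sox10 in log2 CPM were Arhgdia, Rps4x, Atp5a1, Angel1 and Rpl3, at distances of 0.0845 to 0.107, with means of 809.7 to 917 CPM in WT31 and 730.1 to 778.5 CPM in WT31_P5IV.

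Sox9 was the least abundant member in WT31. It had 30.3, 37.2, 35, 40.4 and 43 estimated counts in WT31 and 13.2, 23, 12.8, 16 and 20 in WT31_P5IV (ENSMUSG00000000567.5, chr11:112782224-112787760, plus strand). All WT31 libraries were above all WT31_P5IV libraries, by a narrow margin between the lowest of WT31 and the highest of WT31_P5IV. The level was 1.45 ± 0.20 CPM in WT31 and 0.711 ± 0.196 CPM in WT31_P5IV, a log2 fold change of −1.02 with a standard error of 0.20.

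Counted over the 9 members, 7 passed the edgeR test as lower in the subline, with the adjusted p (Benjamini-Hochberg over all genes) below 0.05, and Sox4 and Sox5 were not. Of all 13620 genes tested, 33.9% were called lower and 68.5% were called in either direction. With a log2 fold change of at most −1 as well, as in the filter of the study, 3 members were lower, namely Sox2, Sox12 and Sox9, against 3.69% of all genes lower and 9.1% in either direction. All 9 members were called lower with voom without scaling and on both log2 TPM scales. There 5405, 5897 and 5968 of all genes were called lower, against 4618 as reported. With upper-quartile scaling, or without WT31_P5IV replicate 2 or 5, 6 members were called lower. Nothing is read from these counts, since the members were selected on this contrast. Sox9 lay just past the fold threshold at −1.02, and Sox13 was short of it at −0.82. Among other alternatives, Sox9 fell short of it without WT31 replicate 5, WT31_P5IV replicate 1 or WT31_P5IV replicate 3. The median log2 fold change of the members was −0.55, also with Sox2 at its lower bound, and that of all tested genes was 0.01.

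Levels of different genes were compared as transcripts-per-million values (TPM), which correct for transcript length. Sox10 dominated in both lines. It had 509 ± 26.2 TPM in WT31 and 410 ± 18.9 TPM in WT31_P5IV, rank 261 and rank 296 among all 55385 identifiers. Sox10 made up 75.5 ± 1.90% of the summed TPM of the 9 members in WT31 and 77.3 ± 0.481% in WT31_P5IV. The sum itself was 673 ± 18.0 TPM in WT31 and 530 ± 21.4 TPM in WT31_P5IV.

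Below Sox10 in WT31 came Sox4 at 87.6 ± 1.97 TPM, Sox6 at 23.4 ± 4.55, Sox11 at 21.03 ± 1.02 and Sox5 at 15.5 ± 2.01. Sox2 at 6.50 ± 0.281 TPM and Sox12 at 6.49 ± 0.501 followed, then Sox13 at 3.48 ± 0.329 and Sox9 at 0.549 ± 0.0655. The ranges of Sox6 and Sox11 overlapped, as did those of Sox2 and Sox12, and all other neighbours in the order were separate. In WT31_P5IV the order was Sox10, Sox4 at 74.8 ± 2.95 TPM, Sox11 at 16.2 ± 0.802, Sox6 at 14.9 ± 0.493 and Sox5 at 12.0 ± 1.41. The ranges of Sox11 and Sox6 overlapped here too, so their order was not resolved in either line. Sox13 followed at 1.75 ± 0.159 TPM, then Sox9 at 0.239 ± 0.0636 and Sox12 at 0.226 ± 0.0480, whose ranges overlapped. Sox2 was listed at 0 TPM in 4 libraries and at 0.0296 TPM in the other. Sox2 and Sox12, side by side in WT31, were thus both at the end of the order in WT31_P5IV.

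**Figure D3:**
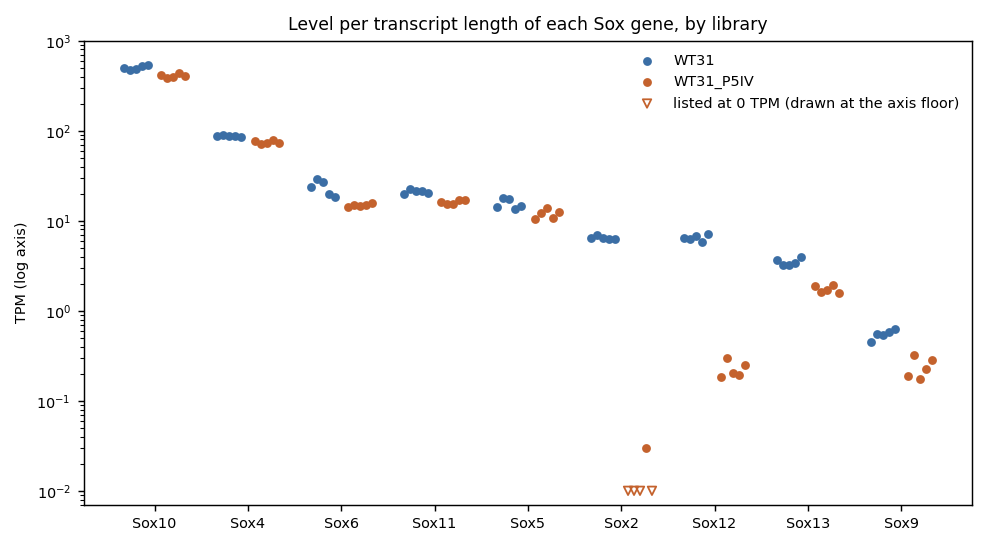
Transcripts-per-million values (TPM, log axis) of the 9 Sox genes in each library of WT31 and WT31_P5IV, in the order of their mean in WT31, with open triangles at the bottom for libraries listed at 0. Sox10 is highest in both lines, and Sox2 and Sox12 drop below Sox13 in WT31_P5IV.

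The share of all genes without overlap between the groups was not counted, so nothing is read from the numbers of members here. On the TPM scale 8 members had no overlap between the groups and only Sox5 did, while in CPM 6 had none. The difference concerns Sox4 and Sox10, whose TPM were lower in every WT31_P5IV library. On the log2(TPM + 0.1) scale the fold change of all genes had a median shift of −0.17 against that of the scaled counts, so that a part of this separation applies to all genes. On that scale the log2 fold change was −0.23 for Sox4 and −0.31 for Sox10.

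Where a gene has several transcripts, counts divided by TPM give the mean length of its transcripts, weighted by abundance. For Sox6, with 16 annotated transcripts, this length was 4680 ± 332 bases in WT31 and 4425 ± 199 bases in WT31_P5IV. For Sox5, with 14, it was 5272 ± 375 and 5503 ± 500 bases, and for Sox13, with 5, 2870 ± 89.9 and 2886 ± 190 bases. In these 3 genes the ranges of the lines overlapped. Sox10 was almost fixed at 2697 ± 3.62 bases in WT31 and 2705 ± 3.31 bases in WT31_P5IV, and Sox12 at 4453 bases, the length of its longer transcript, in both lines.

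**Figure D4:**
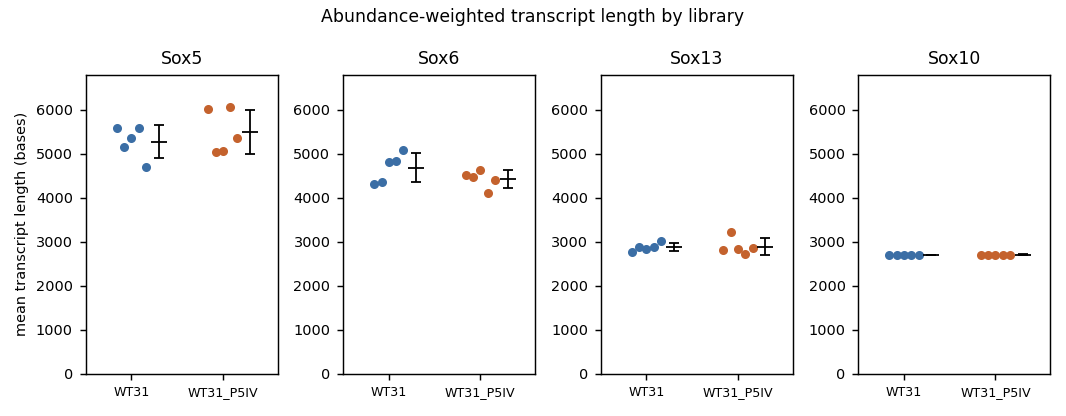
Mean transcript length in bases, weighted by abundance, of Sox5, Sox6, Sox13 and Sox10 in each library of WT31 and WT31_P5IV, with each point 1 library and the black bar the mean with its SD. Libraries of both lines overlap for Sox5, Sox6 and Sox13, and all libraries lie near 2700 bases for Sox10.

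Of the 11 other Sox genes, Sry included, Sox21 was the only one tested. Sox21 is a SoxB2 protein that counteracts SoxB1 proteins such as Sox2 at shared targets, and it moved in the opposite direction to Sox2. It had 24, 8.8, 10.4, 11 and 22 estimated counts in WT31 and 69.5, 57.9, 58.5, 70.7 and 56.7 in WT31_P5IV, with no overlap. Sox21 rose from 0.597 ± 0.285 to 2.62 ± 0.310 CPM, a log2 fold change of 2.14 with a standard error of 0.23 (edgeR adjusted p = 1.17e-06). Of its 31-base words, 18.6% occurred in other genes, mostly in the non-coding Gm4675, and the counting could split reads between them, since the estimates were not all whole numbers. Gm4675 had 0 to 1.63 counts in WT31 and 2.25 to 8.31 in WT31_P5IV. Sox1 and Sox3, the other SoxB1 genes, had 0 or 1 count in every library, and Sox8, the third SoxE gene, had 0 to 3.

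Partner factors that bind DNA beside Sox proteins were followed as a list of 14 genes, of which 7 were tested, 1 rose and 2 fell. The 3 called genes were 42.9% of those tested, against 68.5% of all 13620 genes, 34.6% called higher and 33.9% lower. The median log2 fold change was −0.06, against 0.01 over all genes. Both genes that fell encode POU factors of neural and neural crest cells. Pou3f2, also known as Brn2 and a factor of invasive melanoma cells, fell from 10.1 ± 1.09 to 1.84 ± 0.275 CPM, a log2 fold change of −2.45 with a standard error of 0.11 (edgeR adjusted p = 1.13e-10). Pou3f1 fell from 1.25 ± 0.175 to 0.291 ± 0.0839 CPM, a log2 fold change of −2.08 with a standard error of 0.22 (edgeR adjusted p = 7.77e-07). Pax3, the partner of Sox10 at the Mitf promoter, passed the test as slightly higher at a log2 fold change of 0.09 (edgeR adjusted p = 0.0239), and stood at −0.073 and −0.072 on the scales log2(TPM + 0.1) and log2(TPM + 1), where the medians of all genes were −0.138 and −0.115. The call of Pax3 missed the threshold in 12 of 21 alternatives, among them leaving out WT31 replicate 1, 3, 4 or 5 or WT31_P5IV replicate 1, 4 or 5, with adjusted p of 0.00557 to 0.634 over the 21. Mitf itself averaged 346 ± 33.3 CPM in the parental line and 342 ± 11.8 CPM in the subline, with a log2 fold change of −0.01 and a standard error of 0.06 (edgeR adjusted p = 0.84).

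Of 16 listed targets of SOX10, 13 were tested, 6 rose and 4 fell, with a median log2 fold change of 0.25. The share called was 76.9%, near the 68.5% of all genes, and it too was split between both directions. Pmel, a structural protein of the melanosome, rose from 1860 ± 135 to 4330 ± 242 CPM, a log2 fold change of 1.22 (edgeR adjusted p = 1.07e-10). Erbb3, the neuregulin receptor of neural crest cells, rose by 0.92 (edgeR adjusted p = 1.38e-10) and Dct, an enzyme of melanin synthesis, by 0.80 (edgeR adjusted p = 2.72e-09) on the log2 scale. Tyrp1, another melanin enzyme, fell from 3041 ± 49.7 to 1564 ± 71.9 CPM, a log2 fold change of −0.96 (edgeR adjusted p = 3.5e-11). Pigment genes thus stood among both those that rose and those that fell, beside log2 fold changes of −0.14 for Sox10 and −0.01 for Mitf.

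The list of SOX9 targets, mostly cartilage matrix genes, held 13 genes, of which 9 were tested, 4 rose and 2 fell, with a median log2 fold change of 0.43. The called genes made up 66.7% of those tested, close to the 68.5% of all genes. Col9a1 and Col9a3, chains of type IX collagen, rose by 1.01 (edgeR adjusted p = 3.98e-09) and 1.1 (edgeR adjusted p = 0.00039) on the log2 scale. Col11a1, a chain of type XI collagen, fell from 41.3 ± 2.95 to 14.8 ± 1.02 CPM, a log2 fold change of −1.48 (edgeR adjusted p = 4.19e-11). Hapln1, a link protein of cartilage matrix, fell by 2.20 on the log2 scale (edgeR adjusted p = 0.000103), at 11 to 20 counts in WT31 and 1 to 6 in WT31_P5IV. Col2a1 and Acan, the best known targets of SOX9 in cartilage, had at most 3 counts in every library.

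Most targets of SOX2 known from stem cells were not detected. Of 14 genes, 8 had at most 3 counts in every library, among them Pou5f1, Fgf4 and Lin28b, which held no count in any library. Of the 3 that were tested, 1 rose and 2 fell, with a median log2 fold change of −0.46, so that all 3 were called, against 68.5% of all genes. Spp1, the secreted phosphoprotein osteopontin, fell from 9.13 ± 0.495 to 0.282 ± 0.0958 CPM, a log2 fold change of −4.98 with a standard error of 0.14 (edgeR adjusted p = 6.22e-13). Ccnd1, the cell cycle regulator cyclin D1, fell by 0.46 on the log2 scale (edgeR adjusted p = 4.84e-08). Nes, an intermediate filament of neural progenitors, rose by 0.69 on the log2 scale (edgeR adjusted p = 6.64e-07), opposite to Sox2.

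Of 8 targets of SOX4 and SOX11, 7 were tested, 4 rose and 3 fell, with a median log2 fold change of 0.15. All 7 were thus called, where 68.5% of all genes were, but only 2 were called higher with voom without scaling, with genes of at least 1 count, and on log2(TPM + 0.1). Plxna1, a semaphorin receptor, and Nrcam, a neuronal adhesion molecule, rose by 1.04 (edgeR adjusted p = 1.39e-10) and 0.99 (edgeR adjusted p = 5.3e-10) on the log2 scale. Tubb3, a neuronal tubulin, fell by 0.54 (edgeR adjusted p = 2.05e-06) and Pax5, a paired-box factor of B cells, by 0.40 (edgeR adjusted p = 0.000301). Over all 73 listed genes 39 were tested, 17 rose and 13 fell, a share of 76.9% called that is near the 68.5% of all genes. The balance of directions depended on the scaling, with 14 higher and 14 lower with voom without scaling, 12 and 14 on log2(TPM + 0.1), and 13 and 15 on log2(TPM + 1). Of all called genes 50.5% were higher as reported, 42.6% with voom without scaling, and 32.9% and 32.8% on the log2 TPM scales.

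**Figure D5:**
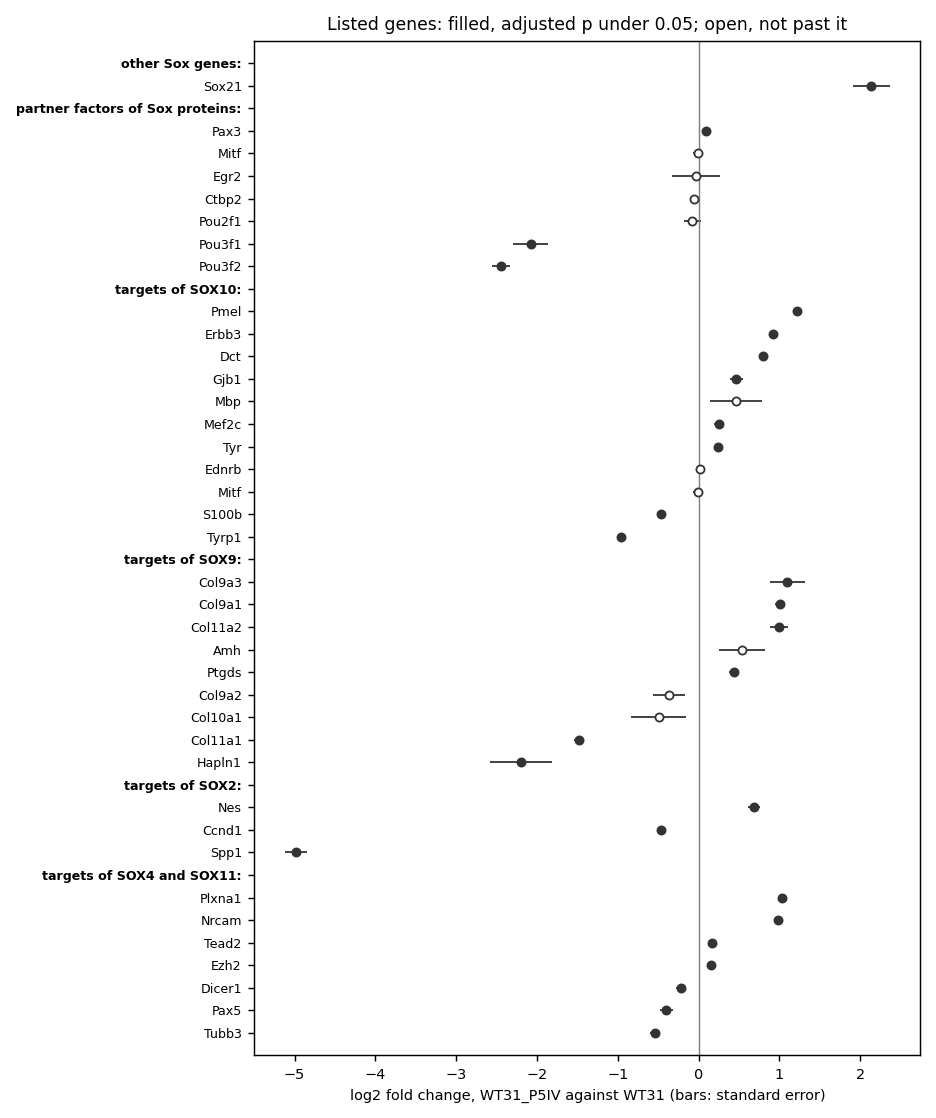
Log2 fold change of WT31_P5IV against WT31 with its standard error for the tested genes of the 6 lists whose values are reported, filled where the adjusted p was under 0.05 and open where it was not. Sox21 is the farthest to the right at 2.14 and Spp1 the farthest to the left at −4.98, and every list of targets has genes on both sides of 0.

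Genes next to the members were examined for changes shared along the chromosome. The 18 nearest tested genes, 1 on each side of each member, held 6 that rose and 4 that fell, with a median log2 fold change of 0.03. The 10 called neighbours were 55.6% of the 18, below the 68.5% of all genes, of which 34.6% were called higher and 33.9% lower. With voom without scaling 4 neighbours were higher and 6 lower, and on both log2 TPM scales 3 were higher and 7 lower. Dnajc19, 569 kb from Sox2, fell by 0.28 on the log2 scale (edgeR adjusted p = 0.000241), and the small RNA gene Gm25442, 673 kb away on the other side, was at 0.302 ± 0.153 and 0.449 ± 0.185 CPM (edgeR adjusted p = 0.217). Beside Sox12, Trib3 at 49.6 kb and H13 at 271 kb rose by 0.99 (edgeR adjusted p = 0.0014) and 0.58 (edgeR adjusted p = 6.63e-08) on the log2 scale, opposite to Sox12. Insc, 620 kb from Sox6, was the only neighbour past the fold threshold and fell by 1.25 on the log2 scale (edgeR adjusted p = 2.08e-09). The non-coding gene Sox2ot, which spans Sox2 on the same strand, had 1 to 6 counts in WT31 and 0 to 4 in WT31_P5IV. Sox6os, antisense to Sox6, had 7 to 13 counts in WT31 and 8 to 13 in WT31_P5IV, and the other 8 annotated genes that overlap Sox5 or Sox6 had at most 3.

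All libraries had between 24255389 and 25750639 estimated counts. Markers of melanocytes were abundant in both lines, with a sum of 16337 to 17580 CPM in WT31 and 21444 to 25017 CPM in WT31_P5IV. The macrophage and leukocyte list summed to 0.833 to 2.16 CPM in WT31 and 3.50 to 5.07 CPM in WT31_P5IV, nearly all of it Cd68, while Ptprc, Adgre1 and Itgam had at most 3 counts in every library. Hepatocyte markers summed to 0.227 to 0.554 CPM in WT31 and 0.402 to 1.18 CPM in WT31_P5IV, with Serpina1a and Cyp3a11 at 0. Alb and Apoa1 had 0 counts in every WT31 library. In WT31_P5IV Alb had 9 counts in replicate 1 only, and Apoa1 had 4, 2, 0, 0 and 3. Ttr had 6 to 14 counts in WT31 and 8 to 15 in WT31_P5IV. Cholangiocyte markers reached at most 0.333 CPM, endothelial markers 0.488 CPM with Cdh5 at 0, and fibroblast markers 3.98 CPM. Of the fibroblast markers Col1a1, a chain of type I collagen, rose from 0.868 ± 0.20 to 1.73 ± 0.233 CPM (edgeR adjusted p = 0.000156), with 18 to 28 counts in WT31 and 33 to 48 in WT31_P5IV. The part of the Cd68, Alb, Apoa1 and Col1a1 differences in the results above was not tested.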

How the data were processed

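Reads from 10 cultures (5 of WT31, 5 of WT31_P5IV) were processed by the authors with Trim Galore 0.6.4 and kallisto 0.4.6, as versioned in the submitters' processing notes, on GRCm38 transcripts. The methods of the study give a different kallisto version. The deposited estimated counts and the deposited TPM were both summed per gene by the authors. The annotation release was not given in the sources used here. GENCODE M21 held 55144 of 55385 identifiers and gave symbols and positions. Replicate numbers follow the sample titles.

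Estimated counts were rounded, genes kept by filterByExpr, libraries scaled by TMM, and the lines compared by the quasi-likelihood test of edgeR 4.0.16 (glmQLFit, glmQLFTest, R 4.3.3), with Benjamini-Hochberg adjustment over 13620 genes. The fold threshold was a log2 fold change of 1. CPM use the TMM-scaled library sizes. Totals of 24255389 to 25750639 counts set the limit of 3 counts at 0.114 to 0.129 CPM. Log2 fold changes carry edgeR's default prior count, and standard errors come from the fold change without it and the F statistic.

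The members and gene lists were chosen with earlier results of these data known. Named were all members, list genes by the largest change past the test (up to 4 per list) and Mitf, overlapping genes, neighbours, and the 5 genes nearest to Sox2 and Sox10. The alternatives were DESeq2 1.42.0, upper-quartile scaling, voom in limma 3.58.1 (TMM or no scaling), count filters, a replicate block, log2 TPM with pseudocounts of 0.1 and 1, a transcript length offset, and leaving out libraries. Promoters came from RefSeq (GRCm38.p6). Values of some single listed genes are not reported here. Protein sequences were not used here, and the strand setting of the counting was not given in the sources used here.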

Additional observations from a re-analysis of the deposited data

How the results depend on the processing

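Under 21 alternatives the number of genes past an adjusted p of 0.05 was 8622 to 10163 (9327 as reported), that of members called lower 6 to 9, and no member changed sign. The number of genes past the fold threshold as well, 1240 as reported, was 2319 with genes of at least 1 count, 698 with at least 10 counts in every library and 465 on log2(TPM + 1). The count filters change how many low genes are tested, and a pseudocount shrinks differences of low genes. The part of either in these numbers was not tested. Members past that threshold numbered 2 or 3. Sox9 fell short of it under upper-quartile scaling, on both TPM scales and without WT31 replicate 5, WT31_P5IV replicate 1 or WT31_P5IV replicate 3, at log2 fold changes of −0.99, −0.95, −0.32, −0.97, −0.95 and −0.93. Sox2 was not tested where 10 counts were asked of every library. Neighbours called higher fell from 6 to 3 and those called lower rose from 4 to 7 on log2(TPM + 0.1) and on log2(TPM + 1), scales that moved the median of all genes by −0.167 and −0.159. Pax3 was at −0.0731 and −0.0724 on these scales, above their medians of −0.138 and −0.115. Among the neighbours, Polr2f missed the threshold in 9, Etnk1 in 8, Gm40841 in 11 and Plekha6 in 2 of the 21. With the replicate block 9380 genes, 1253 past the fold threshold and 8 members were called. The numbers are those of the sample titles, from which the names of the WT31 data tables differ, and share no labelled batch or day, the correlations of same-numbered libraries ran from −0.096 to 0.178, and the samples were not treated as paired. Depth limits genes with fewer than 100 counts in every library, among them Sox9, Sox21, Pou3f1, Col9a3, Hapln1, Trib3, Gm25442 and Gm40841.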
